A study of Mus musculus with 150 samples.

Results

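Most genes described here build and run the motile cilium of airway cells, though the names also bring in others, such as Spag5 and Spag9. The set was chosen by name: every gene on the array whose symbol begins with Dnah, Dnai, Dnali, Rsph, Tekt, Cfap or Spag, together with Foxj1, Tppp3, Dynlrb2 and Efcab1. The rule found 56 of 17097 genes, each read by 1 probe set, the brightest over all arrays where a gene had several. Dynlrb2 was matched to no probe set in the annotation used here and is not analysed.

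Whole lungs of adult male mice were profiled, each mouse on its own Affymetrix HT MG-430 PM array, after inhalation of air or styrene for 26, 52, 78 or 104 weeks. The dose was 0 or 120 ppm, given for 6 hours a day on 5 days a week. The study compared 31 wild-type C57BL/6 mice (WT), 39 C57BL/6 mice with the CYP2F2(-/-) knock-out (KO), 38 CYP2F2(-/-) mice that also carried the transgene labelled 2F1,SA13,2B6 (TG), and 42 CD-1 mice, an outbred stock. KO and TG mice thus share the knock-out, and the labels do not give the promoter of the transgene. The 71 air and 79 styrene mice fell into 31 groups of 2 to 10, with no WT air group at 26 weeks. Tumours or tumorous lesions were recorded for 10 mice, all at 104 weeks, and tumour tissue was not assayed apart from the rest of the lung.

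Motile cilia cover the multiciliated cells of the airways and sweep mucus out of the lung. Their core, the axoneme, is a ring of microtubule doublets around a central pair. Outer and inner dynein arms pull the doublets past one another, radial spokes pass signals from the central pair to the arms, and tektins lie inside the doublets. Foxj1 is the transcription factor that switches on this gene set in ciliated cells, with RFX factors binding X-box sites beside many of the same genes.

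Promoter sequences were at hand for 45 of the 56 genes, taken from RefSeq on GRCm38.p6 as the 250 bases before to 50 bases after the annotated start. The stretches shown hold the full X-box, with arms GTTNCC and GGNAAC held 2 bases apart, in both genes that had one, and the shorter RFX site, GTTGCCA, in Cfap161 and in the listed gene Tekt1. All lie on the minus strand and are printed 5′ to 3′ along the gene, with matches to either motif on either strand in capitals.
Cfap298, chr16:90934874-90935067, 218 to 25 bases before the start: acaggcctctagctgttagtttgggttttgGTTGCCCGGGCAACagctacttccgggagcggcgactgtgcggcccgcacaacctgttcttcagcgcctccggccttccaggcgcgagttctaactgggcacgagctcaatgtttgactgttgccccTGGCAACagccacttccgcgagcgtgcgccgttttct
Cfap20dc, chr14:8666349-8666422, 132 to 59 bases before the start: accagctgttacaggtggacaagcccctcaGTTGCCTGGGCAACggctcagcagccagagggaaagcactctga
Cfap161, chr7:83794843-83794936, 97 to 4 bases before the start: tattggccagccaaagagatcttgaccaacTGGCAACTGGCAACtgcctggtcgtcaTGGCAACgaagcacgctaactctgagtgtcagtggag
Tekt1, chr11:72361883-72361927, 45 to 1 bases before the start: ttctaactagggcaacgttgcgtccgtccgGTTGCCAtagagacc

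The X-box was found in 2 of the 45 promoters (4.44%), against 0.529% of the 27025 genes with a promoter in the same table. The shorter RFX site, whose first bases can overlap an arm of an X-box, was found in 5 of 45 (11.1%), namely Cfap161, Cfap20, Cfap298, Cfap300 and Tekt1, against 5.02% of genes. Cfap161 held 3 copies of it, 2 of them end to end. The forkhead letters GTAAACA, of the kind that Foxj1 and other forkhead factors bind, occurred in 3 of 45 (6.67%), Cfap20, Cfap43 and Dnah17, against 4.05% of genes. These matches describe letters in a window and were not tied to any measured binding.

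Levels are RMA values on a log2 scale, and differences are log2 differences. Probe sets differ in how brightly they read a transcript, so the levels given for different genes do not rank their transcripts. All 31 group means were fitted together with limma over 15695 genes, and a gene is called changed where its adjusted p (Benjamini-Hochberg over these genes) was under 0.05. Of the 56 genes 54 passed the filter on dim probe sets. Dnah17, at a mean level of 2.57, and Spag6, at 2.21, did not. Spag6 has a near-identical copy, Spag6l, which read 7.36, so how signal divides between these is uncertain, and Dnah7a also belongs to a family of close copies.

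The lungs gave a clear signal for most of the machinery. The transcription factor Foxj1 averaged 7.63 over all arrays and ranged from 5.19 to 8.78. Among the listed genes, Tppp3, a tubulin-binding protein of ciliated cells, averaged 11.50 (9.61 to 12.11), and Tekt1, a tektin, averaged 7.18 (4.72 to 8.01). Rsph1, a radial spoke head protein, averaged 8.06 (6.80 to 9.16), and Dnah6, an inner arm heavy chain, averaged 7.08 (4.94 to 8.01). Efcab1, also called calaxin, a calcium-binding protein of the outer arm, averaged 5.84 and had the widest span of these, from 3.46 to 7.16.

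**Figure D1:**
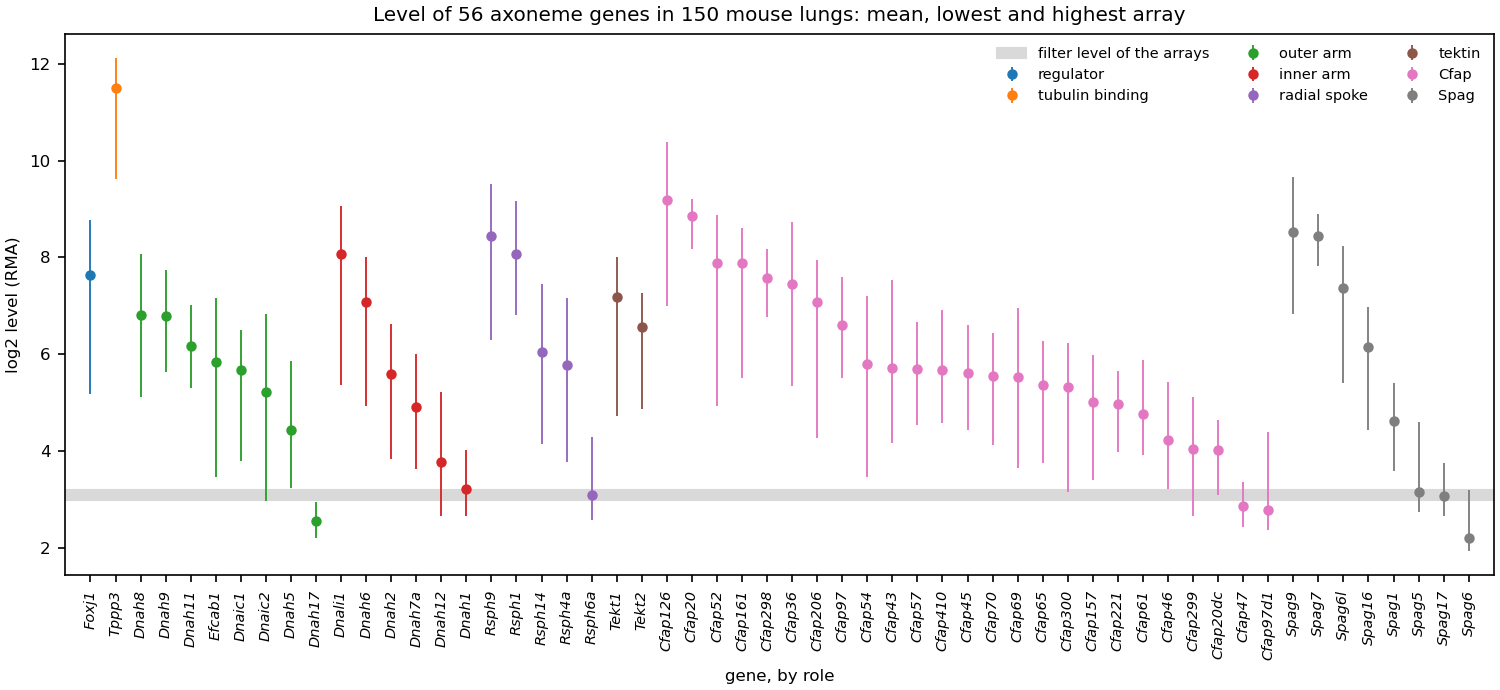
Mean level of each of the 56 genes over all arrays (RMA log2 value), grouped and coloured by role; points are means, lines run from the lowest to the highest array, and the grey band is the filter level. Tppp3 is at 11.50 and the genes that failed the filter, Dnah17 and Spag6, lie at 2.57 and 2.21.

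Within the roles, the 25 Cfap genes, named for proteins found in cilia and flagella, ran from 2.78 for Cfap97d1 to 9.18 for Cfap126, a protein inside the doublets. The inner arm genes ran from 3.21 for Dnah1 to 8.07 for the light chain Dnali1, and the radial spoke genes from 3.09 for Rsph6a to 8.45 for Rsph9. Dnah8, an outer arm heavy chain, averaged 6.81, and Tekt2 averaged 6.57. The Spag genes, named for sperm antigens, include broadly expressed genes such as Spag9, a scaffold of stress kinase signalling, at 8.52, and Spag5, a mitotic spindle protein. A few genes stayed near the dim end: the group mean lay under the filter level in 31 groups for Cfap47, 30 for Cfap97d1, 18 each for Rsph6a and Spag17, 11 for Spag5 and 4 for Dnah1. For these, background compresses any difference.

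Markers of lung epithelium were bright and those of testis were not. Of 46 other ciliated cell markers, 38 were tested and 2 had a mean under the filter level, with Sec14l3 at 12.77. The club cell marker Scgb1a1 was at 13.86, the alveolar type 2 marker Sftpc at 13.80 and the alveolar type 1 marker Ager at 13.52. Of 12 testis and sperm genes, 4 failed the filter, 6 of the 8 tested had a mean under its level, and the highest, Prm2, was at 3.14. Cyp2f2, the targeted club cell enzyme, ran from 11.7 to 12.6 in KO and from 11.8 to 12.4 in TG mice, against 12.9 to 13.5 in WT mice, so the groups did not overlap. Its probe set still read brightly in the knock-out, and its position relative to the deletion is not known here.

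Array plates were inferred from the well codes and study identifiers in the file labels, so the plates named here are not recorded facts. Up to 78 weeks nearly all arrays lay on plate 1, with 14 on plate 2, which the model carries as a term. At 104 weeks plate 3 carried the air mice and plate 4 the styrene mice, apart from 4 styrene arrays whose plate was not settled, so dose and plate cannot be told apart at that time. In whole lung, fewer ciliated cells and less of a transcript per ciliated cell cannot be told apart either, which touches each result below.

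Mice of 1 group differed along with their Foxj1. After the group means were removed, 42 of the 53 other genes followed the Foxj1 level in limma with Foxj1 as a covariate, 41 rising with it and 1 falling. Of all 15694 other genes 22.1% were called in that model, and 11.9% were called rising with Foxj1. The median correlation with Foxj1 was 0.42 over the 53 genes and 0.0036 over all genes.

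Dnali1, the inner arm light chain, followed Foxj1 most closely, at 0.62 log2 per log2 unit of Foxj1 (adjusted p = 4.55e-17, limma). Its Pearson r over 150 arrays was 0.71 and its Spearman rho 0.66, each with a permutation p of 1e-05, the smallest that 100000 resamples can give. The 2 arrays farthest from the median of Foxj1 were a CD-1 air mouse at 5.19 and a TG styrene mouse at 6.37, both at 104 weeks and both with a tumour label. Without them r was 0.64, on plate 1 alone it was 0.59, and on plates 3 and 4 it was 0.85.

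The listed genes followed in the same way, with r of 0.66 for Tekt1, 0.62 for Tppp3, 0.59 for Rsph1, 0.54 for Dnah6 and 0.38 for Efcab1. Dnah9, an outer arm heavy chain, reached 0.68, as did Cfap126. Not every gene chosen by its name did. Spag5 was the gene called falling (r = -0.24, adjusted p = 0.0422, limma), but its r was near 0 without the 2 farthest arrays and 0.23 on plate 1. Dnah8, an outer arm heavy chain, also ran against Foxj1 (r = -0.22) but was not called (adjusted p = 0.0673, limma). Its r was -0.37 without the 2 arrays (adjusted permutation p = 3.79e-04) and -0.37 on plate 1 (adjusted permutation p = 0.00781). On the plates of the last week it was weaker, at -0.13 (adjusted permutation p = 0.609). Spag9 (r = -0.043), Cfap36 (r = -0.037) and Spag7 (r = 0.014) were near 0. Over the 53 genes the median r was 0.37 without the 2 arrays and 0.38 on plate 1.

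Other lists moved with Foxj1. The mean level of the 38 other ciliated markers had r = 0.68, that of 10 dynein arm assembly factors 0.70 and that of 32 intraflagellar transport and BBSome genes, which carry cargo along the cilium, 0.48. Club cell markers, of the secretory cells that share the airway lining, had r = 0.54, while alveolar type 2 markers (-0.099), alveolar type 1 markers (0.077) and macrophage markers (-0.03) were near 0. Goblet and basal cell markers and airway smooth muscle markers each had 0.39, heart muscle markers 0.28, multiciliogenesis regulators 0.24, testis and sperm genes 0.097, B and plasma cell markers -0.26 and mitotic genes -0.37. These values are given as a description, since all lists come from the same arrays. Lists of other cell types thus moved with Foxj1 too, and their part in the correlations was not tested. Of all genes, the 4 closest to Foxj1 were 1700016K19Rik (r = 0.76), Lratd1 (0.75), Cdhr4 (0.74) and Ubxn10 (0.74), and Dnali1 stood at rank 14.

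**Figure D2:**
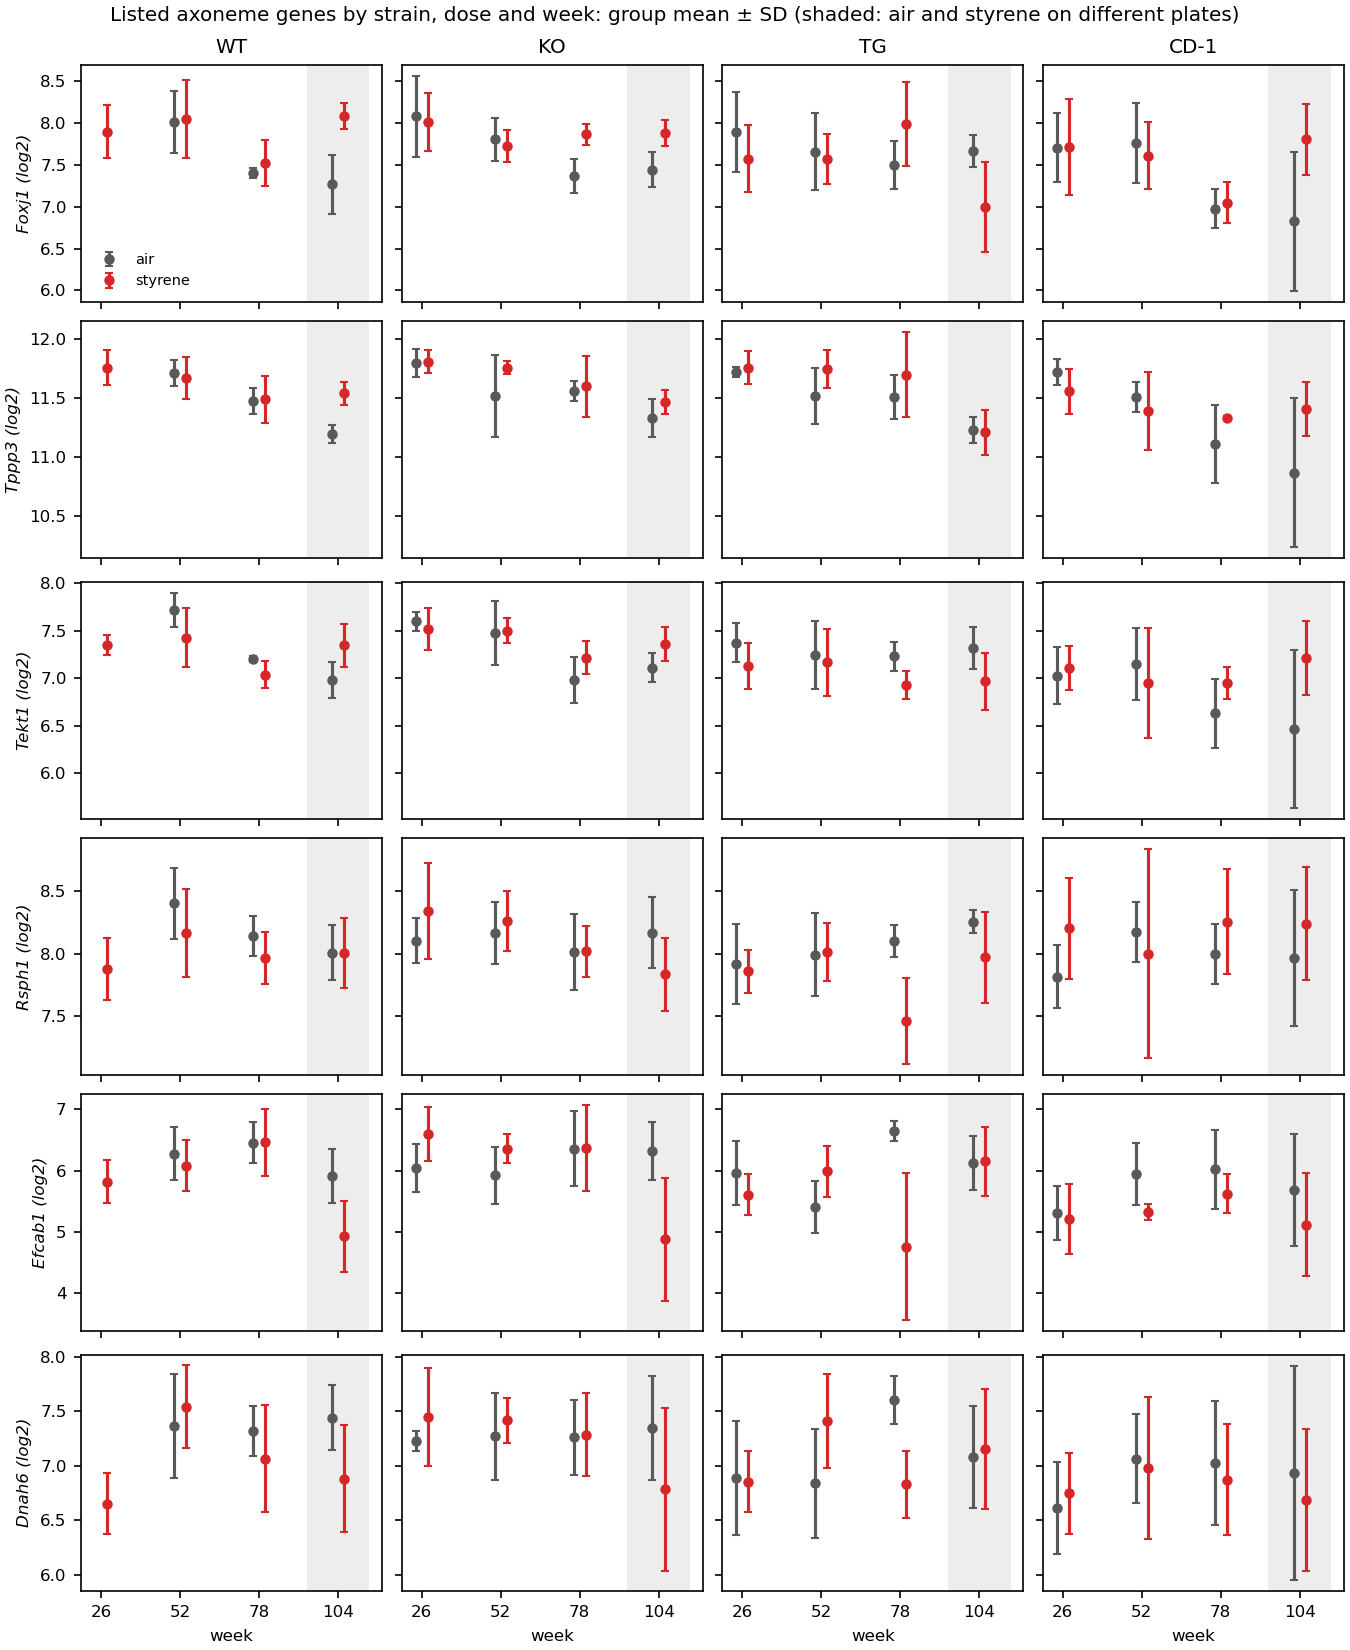
Group mean level (RMA log2 value) of the listed genes by strain, dose and week, with bars of SD and 104 weeks shaded. Single mice are not drawn. In single mice Foxj1 spanned 5.19 to 8.78, with the lowest mouse in the CD-1 air group at 104 weeks.

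CD-1 lungs had lower levels of many axoneme genes than WT lungs, in air and under styrene. They were compared first in air controls of 52, 78 and 104 weeks, 16 mice against 11, with nearly all arrays of a week on 1 plate. In CD-1 mice 20 of the 54 genes were lower and 0 higher, where 17.4% of all genes were called, 10.5% lower and 6.89% higher. The median difference was -0.30 over the 54 genes and -0.0063 over all genes, and 46 of the 54 lay below 0.

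Dnah7a, an inner arm heavy chain, ran from 3.65 to 4.48 in CD-1 air mice, with a median of 4.08, and from 4.69 to 5.76 in WT air mice, with a median of 5.26. All 16 CD-1 mice thus lay below all 11 WT mice. The fitted difference was -1.08 ± 0.13 (SE; 2.12-fold lower; adjusted p = 5.30e-12, limma), and by week it was -1.30, -1.01 and -0.94 at 52, 78 and 104 weeks.

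Rsph9, a radial spoke head protein, ran from 6.30 to 8.27 in CD-1 air mice (median 7.78) and from 8.34 to 8.88 in WT air mice (median 8.67). The groups again did not overlap, and the lowest CD-1 value came from a tumour-labelled mouse, air replicate 3 at 104 weeks. The difference was -0.84 ± 0.14 (SE; 1.80-fold lower; adjusted p = 1.46e-06, limma), and it was -0.73 without tumour-labelled mice.

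Cfap52, a protein inside the doublets, ran from 4.94 to 7.93 in CD-1 (median 7.39) against 7.80 to 8.57 in WT (median 8.19). Cfap206, which helps to anchor a radial spoke, ran from 4.28 to 7.31 (median 6.76) against 7.09 to 7.73 (median 7.50). For both the highest CD-1 mice reached into the WT range, and the lowest was the same air replicate 3. Cfap52 differed by -0.88 ± 0.16 (SE, adjusted p = 5.68e-06, limma) and Cfap206 by -0.82 (adjusted p = 6.22e-05). A second probe set of Cfap52 gave -0.92.

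The lower genes came from several parts of the axoneme. They were 10 of 25 Cfap genes, 3 of 6 inner arm genes, 2 of 7 outer arm genes, 2 of 5 radial spoke genes, 1 of 2 tektins, 1 of 7 Spag genes, and Tppp3 (-0.29, adjusted p = 0.0241). The Tppp3 call was lost without tumour-labelled mice, with weeks 52 and 78 only, and without WT air replicate 1 or CD-1 air replicate 2 of 78 weeks. After the 4 genes above, the next in size were Dnaic2, an outer arm intermediate chain (-0.75), Cfap70 (-0.68), Rsph14, of the radial spokes (-0.65), Spag6l, a central pair protein (-0.62), Tekt1 (-0.56) and Cfap161 (-0.53). The second, dimmer probe sets of Dnaic2 (-0.13) and Cfap70 (-0.03) showed far smaller differences. Whether sequence differences between the strains lie under these probes was not tested.

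Foxj1 itself was not called, at -0.38 (adjusted p = 0.103, limma). Nor were Dnah6 (-0.34, adjusted p = 0.271), Rsph1 (-0.13, adjusted p = 0.591) or Efcab1 (-0.26, adjusted p = 0.495).

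Under styrene, 21 CD-1 mice were compared with 20 WT mice of all 4 weeks, with 4 of the 5 WT arrays of 78 weeks on plate 2 and the CD-1 arrays of that week on plate 1. Here 15 of the 54 genes were lower and 2 higher in CD-1, against 17.2% of all genes called, 9.24% lower and 8% higher. The median was -0.19, and 0.0068 over all genes.

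Dnah7a ran from 3.63 to 4.92 in CD-1 styrene mice (median 4.29) and from 4.53 to 6.01 in WT styrene mice (median 5.32). The ranges overlapped between 4.53 and 4.92. The difference was -1.10 ± 0.11 (SE, adjusted p = 1.51e-16, limma), and by week it was -1.10, -1.17, -1.39 and -0.74. Rsph9 ran from 6.79 to 9.11 (median 7.95) against 8.23 to 9.52 (median 8.78), with a wider overlap and a difference of -1.07 ± 0.12 (SE, adjusted p = 3.85e-13).

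Of the other lower genes, Cfap52 differed by -0.77, Cfap206 by -0.70, Efcab1 by -0.63, Cfap70 by -0.59, Cfap69, of the central pair, by -0.57, Dnaic2 by -0.53, Dnah8 by -0.49 and Spag6l by -0.48. The 2 higher genes were Tekt2 (0.39, adjusted p = 0.00235, limma) and Cfap61 (0.31, adjusted p = 0.0326), a protein near the radial spoke base. Both calls were lost with weeks 26 and 52 only, and that of Cfap61 also in 7 of 31 fits that each left out 1 mouse. Other probe sets gave 0.09 for Cfap61, and 0.25 and -0.56 for Efcab1.

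The air and styrene mice of each strain are different animals, so the 2 comparisons share no array. They had 10 lower genes in common, which is 50% of the air list and 66.7% of the styrene list: Cfap161, Cfap20, Cfap206, Cfap299, Cfap52, Cfap70, Dnah7a, Dnaic2, Rsph9 and Spag6l. Each of these 10 was below 0 at every week in both doses. With only the weeks in which nearly all arrays lay on plate 1, 11 genes were called in air (9.38% of all genes) and 9 under styrene (10.2%), and 7 were called in both. The overlap over all genes was not counted, so these counts do not show whether it is particular to this set.

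**Figure D3:**
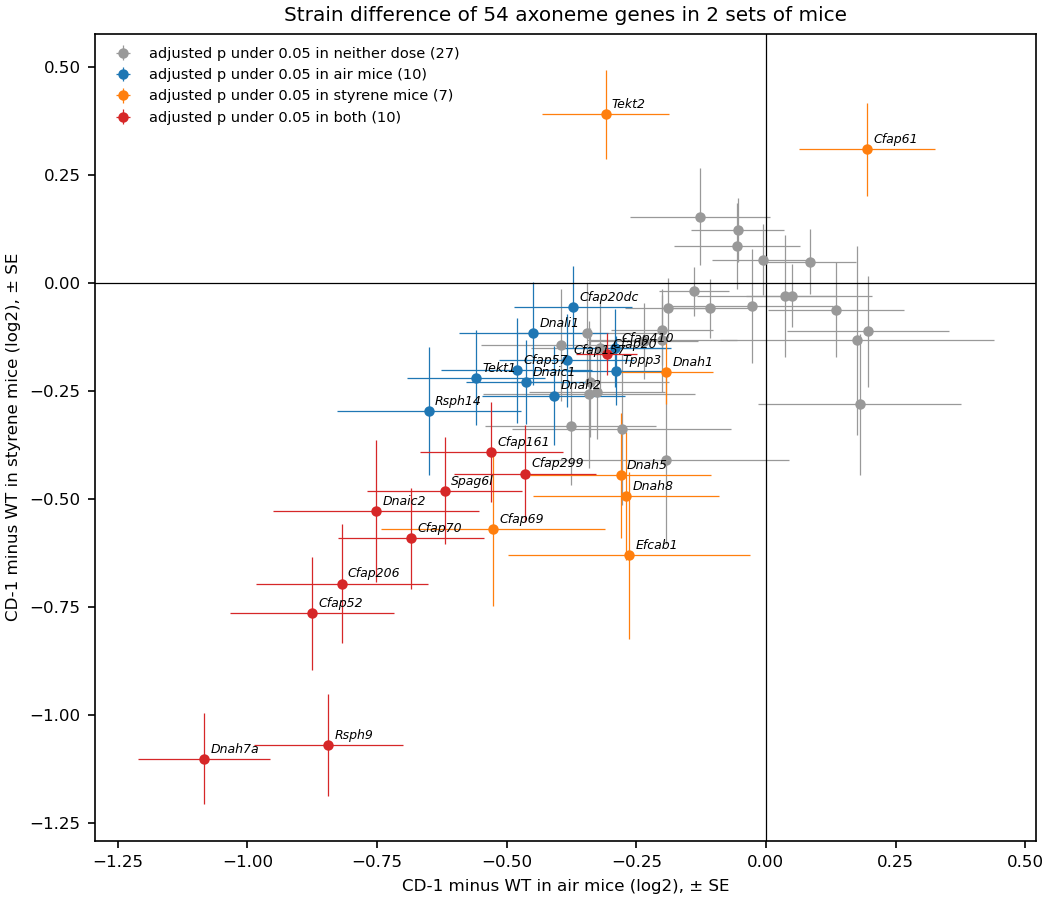
CD-1 minus WT difference (log2) in air against that under styrene for the 54 genes, with bars of 1 SE and colours for genes called in air, under styrene, in both or in neither. Dnah7a and Rsph9 lie lowest under styrene, and Dnah7a also in air, at -1.08 and -0.84 in air and -1.10 and -1.07 under styrene, and 41 of 54 genes are below 0 on both. The share of all genes below 0 on both was not counted.

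The other lists bear on how wide the difference was. In air 22 of the 38 other ciliated markers were lower and 2 higher in CD-1 (median -0.42), with Ccdc153 at -1.14 and Dydc2, the opposite way, at 0.98. Of the intraflagellar transport and BBSome genes 12 of 32 were lower, among them Wdr19 at -0.75, and of the dynein assembly factors 4 of 10, led by Dnaaf1 at -0.90. Club cell markers were lower in 7 of 21, with Upk1b at -1.81. Under styrene the counts were 8 lower and 3 higher for ciliated markers, 14 and 1 for transport genes, and 4 and 3 for club cell markers (median 0.017). Macrophage markers went the other way in air, with 4 of 12 higher, among them Krt79 at 0.97. Of 11 goblet and basal cell markers 2 were lower in both doses, in air Tff2 at -1.68 and Muc5b at -1.42, and the mean of the list had a median of 3.875 in CD-1 and 4.38 in WT air mice. The part that cell numbers had in the strain difference was not tested.

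The C57BL/6 genotypes in air showed no called difference. Of the set, 0 of the 54 genes were called in KO against WT (0.319% of all genes), TG against KO (0.344%) or TG against WT (0.503%). The smallest adjusted p among the 54 genes (limma) was 0.906, 0.972 and 0.551, and at an unadjusted p under 0.05 there were 1, 0 and 0 genes, against 5.35%, 5.56% and 9.31% of all genes. Cfap46, of the central pair, had the smallest p in KO against WT, at 0.32 ± 0.16 (SE). The median standard error of the differences was 0.14, 0.11 and 0.14 log2, which limits what these comparisons could show.

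Under styrene, 1 gene was called in KO against WT, where 2.14% of all genes were, and it was Tekt2. In WT styrene mice Tekt2 read 5.77, 5.84, 6.15, 6.34 and 6.40 at 26 weeks, 5.65, 6.20, 6.32, 6.66 and 6.71 at 52 weeks, 5.98, 6.11, 6.17, 6.22 and 6.43 at 78 weeks, and 6.11, 6.11, 6.29, 6.39 and 6.48 at 104 weeks. In KO styrene mice it read 6.62, 6.73, 6.83 and 6.86 at 26 weeks, 6.59, 6.62, 6.68, 6.74 and 6.81 at 52 weeks, 6.47, 6.86, 6.94, 7.01 and 7.07 at 78 weeks, and 6.66, 6.79, 6.81, 6.85 and 6.97 at 104 weeks. Within a week the KO mice lay above the WT mice at 26, 78 and 104 weeks and overlapped them at 52 weeks. The difference over all weeks was 0.57 ± 0.10 (SE, adjusted p = 6.25e-06, limma).

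In WT air mice Tekt2 read 6.62, 6.68, 6.69, 6.97 and 7.26 at 52 weeks, 6.84 and 7.00 at 78 weeks, and 6.40, 6.47, 6.50 and 6.61 at 104 weeks. At 52 and 78 weeks the WT air mice thus lay in or near the range of the KO styrene mice, and the WT styrene mice were the low ones. WT air and styrene mice did not overlap at 78 weeks and overlapped at 52 and 104 weeks. Even so, the WT styrene effect of -0.58 on the average of 52 and 78 weeks was not called (adjusted p = 0.546, limma). The WT styrene effect minus that of KO was -0.61 for Tekt2 over 52, 78 and 104 weeks and was not called either (adjusted p = 0.18), nor was the CD-1 effect minus that of WT, at 0.71 (adjusted p = 0.114). Those 2 comparisons called 0 of the 54 genes, where 0.0892% and 0.0701% of all genes were called.

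TG against WT under styrene gave 3 called genes (3.29% of all genes), Dnah7a (-0.43, adjusted p = 0.00409, limma), Cfap126 (-0.37, adjusted p = 0.0224) and Tekt2 (0.36, adjusted p = 0.0171). With weeks 26 and 52 alone there were 0. TG against KO under styrene gave 1, Cfap221, a central pair protein (-0.32, adjusted p = 0.0449), against 0.478% of all genes. That call was lost in 19 of 32 fits that each left out 1 mouse. Beyond Cfap221, 51 of 54 genes in all were below 0 in TG, against 52.1% of all genes, and the median was -0.27 against -0.0047 over all genes. At an unadjusted p under 0.05, 31 of the 54 genes were lower, against 6.77% of all genes.

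Styrene itself called 0 of the 54 genes at 26, 52 or 78 weeks in each strain tested. At 78 weeks the TG styrene arrays and most WT styrene arrays lay on plate 2, so those comparisons lean on the plate term. The median standard error at 78 weeks was 0.33 in WT, 0.31 in KO and 0.32 in TG, against 0.21 in each at 52 weeks. In CD-1 it was 0.24 at 78 weeks and 0.26 at 52 weeks. At 26 weeks 0% of all genes were called in KO, 0% in TG and 0.65% in CD-1. At 52 weeks 0.401% were called in WT, 0.0127% each in KO and TG and 0.0701% in CD-1, and at 78 weeks 0.00637% in WT, 0% in KO, 0.191% in TG and 0.121% in CD-1. The smallest adjusted p of the 54 genes in each of these comparisons ranged from 0.113, for Cfap46 in WT at 52 weeks (0.79 ± 0.24, SE), to 1 (limma). At an unadjusted p under 0.05 there were at most 7 of 54 genes, 1 higher and 6 lower, in TG at 78 weeks, where 20.9% of all genes passed (13% higher and 7.91% lower).

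Averages over the weeks up to 78 also called 0 genes in WT (0.0382% of all genes), KO (0%), TG (0%) and CD-1 (0.835%). In KO, 47 of the 54 genes lay above 0 under styrene, as did 54.1% of all genes, with a median of 0.18 against 0.011 over all genes. At an unadjusted p under 0.05, 9 were higher and 1 lower, where 3.22% and 2.81% of all genes were. The smallest p belonged to Dnah5, an outer arm heavy chain, at 0.59 ± 0.18 (SE, adjusted p = 0.733, limma), followed by Cfap54 (0.64), Efcab1 (0.61) and Dnah12 (0.47). In TG, by contrast, 43 of 54 lay below 0 (44.1% of all genes), with a median of -0.081, led by Cfap300, a dynein assembly protein, at -0.38 (adjusted p = 0.24). The TG effect minus the KO effect over all 4 weeks called 0 genes (0% of all genes), and the smallest p was that of Cfap299 (-0.44, adjusted p = 1, limma). The TG minus KO effects were below 0 for 48 of 54 genes, against 53.1% of all genes, with a median of -0.20 against -0.0068. At an unadjusted p under 0.05, 8 of the 54 genes were lower, as were 2.99% of all genes. In CD-1 the smallest p was that of Rsph14 (0.47, adjusted p = 0.238).

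In TG mice at 78 weeks Efcab1 ran from 6.47 to 6.89 in the 5 air mice and read 3.46, 5.07 and 5.75 in the 3 styrene mice. Rsph1 read 7.87, 8.14, 8.15, 8.17 and 8.18 in air and 7.09, 7.54 and 7.76 under styrene. All 3 styrene mice were thus below all 5 air mice for both genes, but the share of all genes separated in this way was not counted. In the fit 41 of the 54 genes lay below 0, against 39.5% of all genes. The listed Foxj1 (0.41) and Tppp3 (0.27) lay above 0. The styrene arrays lay on plate 2 and the air arrays on plate 1, and with the plate term 0 genes were called (0.191% of all genes). Without it 23 of the 54 genes were called, 22 of them lower, where 46.8% of all genes were called and 19.9% were lower.

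At 104 weeks styrene and air arrays differed widely, and there dose and plate cannot be told apart. WT mice had 8 of the 54 genes higher and 10 lower (48% of all genes called, 29.6% higher and 18.3% lower). KO mice had 1 higher and 11 lower (39.4% of all genes, 23.9% higher and 15.4% lower), and CD-1 mice 21 higher and 9 lower (63.6%, 42.8% higher and 20.7% lower). The shares of the 54 genes called were thus not above those of all genes in WT, KO or CD-1. Without tumour-labelled mice 19 genes were called in KO, 2 higher and 17 lower (42.8% of all genes), and 19 in CD-1, 10 higher and 9 lower (48.6%). Without KO styrene replicate 1 the KO count was 7. TG mice had 0 called (0% of all genes), with a smallest adjusted p of 0.664 (limma) and 2 genes at an unadjusted p under 0.05, as were 6.24% of all genes.

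The genes lower in WT, KO and CD-1 were Cfap36, Cfap43, Cfap69, Cfap97, Dnah5, Rsph4a and Spag9. With each WT mouse or KO styrene mouse left out in turn, Cfap36, Cfap97, Rsph4a and Spag9 kept the call in each fit. Cfap69 lost it in KO in 4 of the 5 KO fits and with arrays centred, Cfap43 in KO without styrene replicate 1 and in WT without air replicate 2, and Dnah5 in WT without air replicate 2 or styrene replicate 5. Cfap69 and Dnah5 also lost the call in CD-1 without tumour-labelled mice. Cfap36 read 7.80, 7.89, 7.93 and 8.26 in WT air mice and 5.34, 6.31, 6.87, 6.93 and 7.31 in WT styrene mice. The groups did not overlap, and the difference was -1.42 ± 0.27 (SE, adjusted p = 1.28e-05, limma). Spag9 read 8.52, 8.59, 8.73 and 9.01 in WT air mice and 7.19, 7.22, 7.29, 7.68 and 7.77 in WT styrene mice, again without overlap, and differed by -1.28 in WT and by -1.28 in CD-1 (adjusted p = 3.74e-09 in CD-1). In TG both genes had differences above 0, at 0.16 for Cfap36 and 0.17 for Spag9.

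Foxj1 went the other way. It read 6.93, 7.11, 7.26 and 7.76 in WT air mice and 7.95, 7.99, 7.99, 8.14 and 8.32 in WT styrene mice, which lay above every air mouse (0.81 ± 0.26, adjusted p = 0.00767, limma). In CD-1 it was 0.97 higher under styrene (adjusted p = 8.18e-06), and in the CD-1 air group Foxj1 was lower in tumour-labelled than in unlabelled mice (-1.38). In KO it ran from 7.06 to 7.65 in air (median 7.46) and read 7.63, 7.89, 7.90, 7.93 and 8.04 under styrene, and was not called. In TG it read 7.38, 7.65, 7.66, 7.72 and 7.92 in air and ran from 6.37 to 7.90 under styrene (median 6.93), so TG was the strain in which it was lower on average.

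Cfap410, a basal body protein, was higher in WT (0.83), KO (0.44) and CD-1 (0.94, adjusted p = 6.03e-10, limma). Rsph14 (1.06 in WT, 0.96 in CD-1), Rsph9 (0.78 and 0.91) and Cfap126 (0.56 and 0.70) were higher in WT and CD-1. Among CD-1 air mice the tumour-labelled ones were lower in Cfap410 (-0.70), Rsph14 (-1.07), Rsph9 (-1.26) and Cfap126 (-1.45). Efcab1 was lower in KO (-1.44, adjusted p = 5.45e-04) and in WT (-0.99). So at 104 weeks radial spoke genes lay on both sides, with Rsph4a lower (-1.33 in WT) where Rsph14 and Rsph9 were higher.

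The division ran along an axis that also separates mice of the same group. The axis comes from a principal component analysis of each mouse's departure from its group mean over all genes; its first component takes 20.4% of that variance and is oriented so that Spag9 rises along it. WT air and styrene mice at 104 weeks averaged 1.20 and -2.90 on the axis, KO mice 0.83 and -2.34, CD-1 mice 1.47 and -2.31 and TG mice 0.46 and 0.95. TG mice at 78 weeks averaged 1.72 in air and -2.72 under styrene. Across the 54 genes the correlation between a gene's own correlation with the axis and its 104-week difference was -0.88 in WT, -0.87 in KO, -0.85 in CD-1 and 0.20 in TG, as a description over genes that share arrays. Spag9 (0.95), Cfap97 (0.87), Cfap36 (0.83) and Cfap43 (0.81) correlated most with the axis, and Cfap410 (-0.58) ran against it. The part of the axis in the 104-week differences of single genes was not tested beyond the values given.

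**Figure D4:**
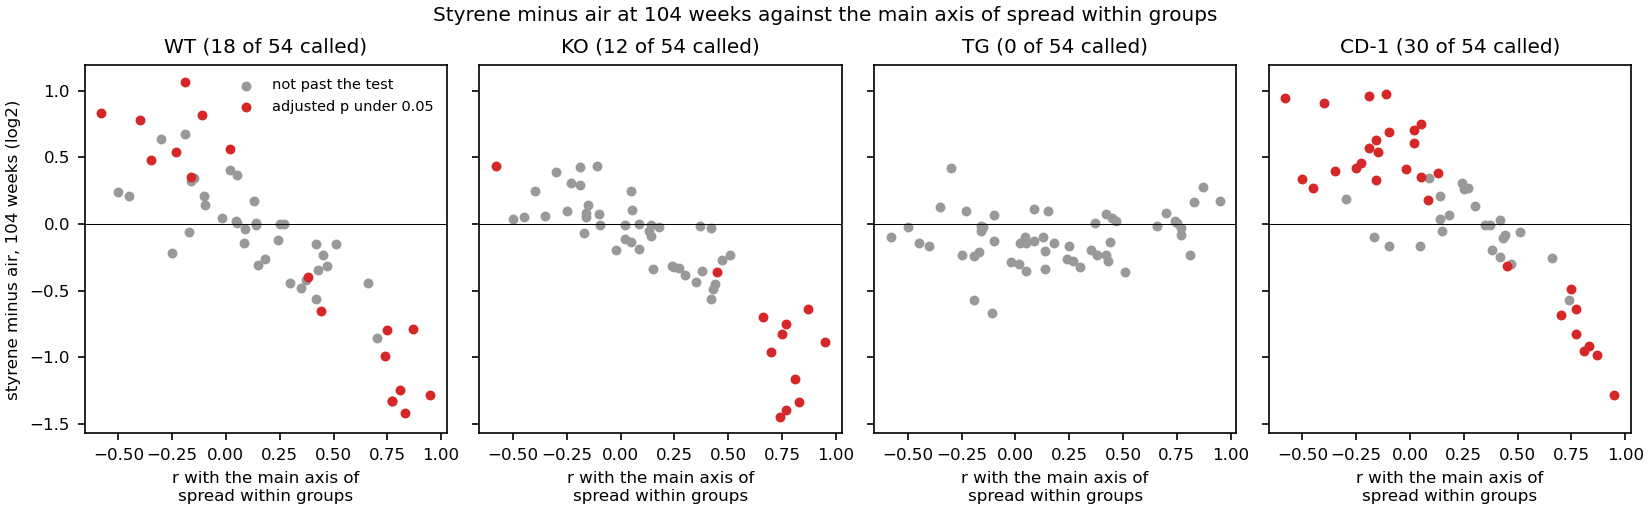
Styrene minus air difference at 104 weeks (log2) against each gene's correlation with the within-group axis, in 1 panel per strain, for the 54 genes, with called genes in red. The points fall from left to right in WT, KO and CD-1 (r = -0.88, -0.87 and -0.85) and not in TG (r = 0.20).

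Age in air controls was followed on plate 1 alone. KO and TG mice of 78 weeks were set against those of 26 weeks, 9 against 9, with 10 of the 54 genes higher and 6 lower (40.3% of all genes called, 16.4% higher and 23.9% lower). The median was 0.023 against -0.074 over all genes. Cfap43, of the complex that tethers an inner arm, rose by 1.34 (adjusted p = 1.84e-04, limma), Cfap69 by 1.02, Cfap54 by 0.91, Cfap36 by 0.87, Dnah5 by 0.76, Rsph4a by 0.73, Cfap97 by 0.69, Dnah12 by 0.68 and Spag9 by 0.68. Foxj1 fell by 0.55 (adjusted p = 0.0133), Dnaic1 by 0.48, Dnah7a by 0.47 and Tekt1 by 0.38, a call lost in 3 of 18 fits that each left out 1 mouse.

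CD-1 controls, 5 against 5, had 7 genes higher and 2 lower (25.3% of all genes called, 11.3% higher and 14% lower). Cfap43 rose by 1.59 (adjusted p = 0.00188, limma), Cfap69 by 1.32, Rsph4a by 0.91, Cfap36 by 0.90, Dnah12 by 0.89, Spag9 by 0.84 and Cfap97 by 0.75. Tppp3 fell by 0.61 (adjusted p = 0.00113) and Foxj1 by 0.72 (adjusted p = 0.0234). The Foxj1, Rsph4a and Dnah12 calls in CD-1 were each lost without CD-1 air replicate 3 or 5 of 78 weeks and with CD-1 fitted separately. Foxj1 was also lost without replicate 1 of 26 weeks, Dnah12 and Rsph4a without replicate 4 of 26 weeks, and Rsph4a without replicate 4 of 78 weeks. With each array centred on its median, 14 genes were called in CD-1, 7 higher and 7 lower. Over the 54 genes the age difference and a gene's correlation with the axis had an r of 0.73 in KO and TG and 0.72 in CD-1, as a description. In KO and TG other lists moved as well: 7 of 10 B and plasma cell markers were higher (median 1.20), and 8 of 11 goblet and basal cell markers (median -0.65) and 5 of 8 airway smooth muscle markers were lower. Their part in the age difference was not tested.

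Among CD-1 mice of 104 weeks, 7 with a tumour label were compared with 10 without, with dose in the model. Of the 54 genes 22 were lower and 1 higher in labelled mice, where 7.26% of all genes were called, 3.98% lower and 3.28% higher. The median was -0.47 against -0.012 over all genes. These calls rested on 1 mouse. Without air replicate 3, 0 of the 54 genes and 5 of all genes were called (0.0319%), and without the unlabelled styrene replicate 1 there were 15.

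The called genes with the lowest differences were Efcab1 (-0.97, adjusted p = 0.0134, limma), Dnah6 (-0.94), Cfap206 (-0.90), Dnali1 (-0.81, adjusted p = 2.61e-04), Cfap126 (-0.73), Tekt1 (-0.73), Cfap65 (-0.72), Cfap45 (-0.71), Cfap161 (-0.70) and Cfap300 (-0.69). The other, dimmer probe sets of Efcab1 gave -0.64 and 0.06. Cfap54 (-0.81, adjusted p = 0.0535, limma) was not called. Foxj1 (-0.62, adjusted p = 0.0297), Rsph1 (-0.48, adjusted p = 0.0457) and Tppp3 (-0.46, adjusted p = 0.00313) were lower too. Spag5, the spindle protein, was the gene called higher (0.42), though dim, and its other, dimmer probe sets gave 0.55 and 0.83.

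Foxj1 read 5.19 and 6.49 in the 2 labelled air mice and 6.67, 7.09, 7.26, 7.41 and 7.68 in the 5 unlabelled ones. Under styrene it read 7.35, 7.45, 7.85, 7.87 and 8.03 in labelled and 7.28, 7.73, 7.82, 7.85 and 8.78 in unlabelled mice. Both labelled air mice were thus the lowest of their group, while under styrene the labelled and unlabelled mice overlapped. Within air the label difference was -1.38 (adjusted p = 1.87e-04, limma) and within styrene -0.18 (adjusted p = 0.984).

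Dnali1 read 5.37 and 7.10 in labelled air mice and 7.61, 7.72, 7.89, 7.98 and 8.09 in unlabelled air mice. Under styrene it read 7.60, 7.68, 7.75, 8.24 and 8.29 in labelled and 7.74, 7.86, 8.24, 8.37 and 9.05 in unlabelled mice. Again both air mice with the label stood below the rest, and the styrene mice overlapped.

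Tekt1 read 4.72 and 6.19 in labelled and 6.52, 6.79, 6.94, 7.05 and 7.07 in unlabelled air mice. Tppp3 read 9.61 and 10.67 against 10.76, 11.03, 11.20, 11.34 and 11.50. Spag5 showed the reverse, with 3.79 and 4.59 in labelled and 2.84, 3.13, 3.14, 3.22 and 3.28 in unlabelled air mice. For all 3 genes air replicate 3 held the more extreme value, and replicate 5 also lay outside the unlabelled range.

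Across the set, both labelled air mice lay below all 5 unlabelled ones for 35 of 54 genes, as they did for 17.6% of all genes. Under styrene all 5 labelled mice lay below all 5 unlabelled ones for 0 of the 54 genes (0.178% of all genes), and the label called 0 of them there (0.0637%). Air replicate 3 was the lowest of all 150 arrays in 25 of the 54 genes (46.3%) and in 15.3% of all genes tested.

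The label effect under styrene minus that in air was called for 18 of the 54 genes (19.5% of all genes), among them Foxj1 (1.20, adjusted p = 0.0166, limma) and Spag5 (-1.02). Rsph1 (0.65, adjusted p = 0.158) and Efcab1 (1.09, adjusted p = 0.166) were not called. That difference rests on 2 labelled air mice.

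**Figure D5:**
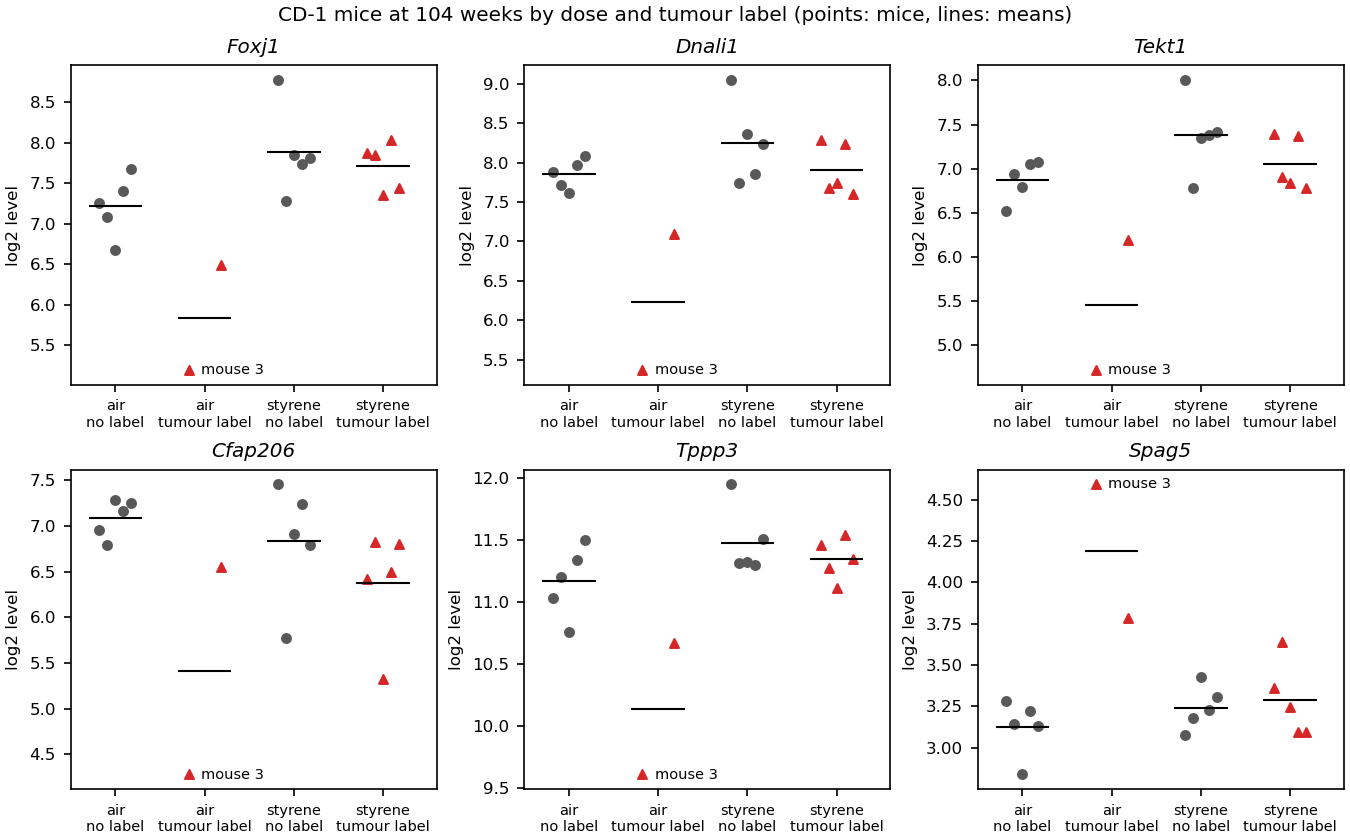
Levels (RMA log2 value) of Foxj1, Dnali1, Tekt1, Cfap206, Tppp3 and Spag5 in each CD-1 mouse at 104 weeks by dose and tumour label. Both labelled air mice lie below every unlabelled air mouse except for Spag5, where they lie above, and under styrene the labels overlap.

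Markers of other cells moved with the label in CD-1, in a fit that called 0.0319% of all genes without air replicate 3. Of the 38 other ciliated markers 26 were lower (median -0.57), among them Cdhr3 at -0.80, and 11 of 21 club cell markers (median -0.37), among them Cbr2 at -0.31. Of 32 intraflagellar transport and BBSome genes 10 were lower. All 14 mitotic genes tested were higher (median 1.19), with Plk1 at 1.16 and Mki67 at 1.40. The mean level of the mitotic genes was 7.92 in air replicate 3 and 6.08 in air replicate 5, against 3.78 to 4.54 in the other air mice. The mean of the other ciliated markers was 5.03 and 5.97 against 6.43 to 6.62, and that of club cell markers 8.14 and 9.63 against 9.49 to 9.92. Under styrene labelled mice overlapped unlabelled ones in each of these lists, with mitotic means of 3.83 to 4.70 against 3.92 to 4.23. Air replicate 3 stood apart in further lists. Its mean was 9.95 for alveolar type 1 markers, against 10.93 to 11.22 in the other 6 air mice, 4.18 for heart muscle markers, against 5.79 to 6.43, and 5.75 for airway smooth muscle markers, against 6.37 to 6.90. B and plasma cell markers were high in it, at 9.14 against 6.48 to 7.88. With the label, 4 of 11 alveolar type 1 markers (median -0.23) and 1 of 13 heart muscle markers (median -0.53) were lower. The part of these lists in the cilia gene differences was not tested.

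In each of 3 other groups 1 mouse carried the label, which allows values but no test. The KO air mouse was the lowest of its 6 in 30 of 54 genes (55.6%, against 21.5% of all genes), among them Foxj1 at 7.06, Tppp3 at 11.05, Efcab1 at 5.40 and Tekt1 at 6.82. The TG styrene mouse was the lowest of its 6 in 27 genes (50%, against 15.2%), with Foxj1 at 6.37. The WT air mouse was the lowest of its 4 in 18 genes (33.3%, against 24.7%). CD-1 air replicate 5, set against the 5 unlabelled mice alone, was the lowest in 35 (64.8%, against 27.2%).

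The mitotic genes were not high in all of these mice. Their mean was 4.86 in the KO mouse, against 4.02 to 4.09 in the rest of its group, but 4.04 in the TG mouse, against 3.73 to 4.70, and 3.84 in the WT mouse, against 3.85 to 4.54. The mean of the other ciliated markers was 6.25 in the KO mouse against 6.61 to 6.96, and 6.23 in the TG mouse against 6.32 to 6.88. In the WT mouse it was 6.45, equal to the lowest of the rest at this rounding. The mean of the club cell markers lay below the rest of the group in all 3 mice, at 9.71 against 9.93 to 10.4 in KO, 9.72 against 9.76 to 10.5 in TG and 10.1 against 10.2 to 10.5 in WT. The part of the club cell markers in these ranks was not tested.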

How the data were processed

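The authors deposited a log2 intensity for each of 45037 probe sets on each of 150 arrays. The notes of the submitters on processing name RMA and Partek, without versions. RMA equalises the arrays, so changes shared by most genes are removed, and background compresses differences of dim genes. Array medians ran from 3.95 to 4.26. Arrays have no read depth, and their number limits precision. The design text counts 154 mice, and 150 are analysed here. No 2 arrays were identical (highest correlation 0.9965).

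The platform annotation, with symbols updated through a RefSeq gene list, gave 28898 probe sets with 1 gene, 551 with several, left out, and 15588 unnamed here. The brightest probe set by mean stood for each of 17097 genes. A gene was tested where at least 3 arrays held it above their own 30th percentile, which lay between 2.99 and 3.19, and 15695 genes were. Group means and a plate 2 term were fitted with limma 3.58.1 (lmFit, eBayes) in R 4.3.3 with the package data.table (version 1.17.8). Contrasts were adjusted by Benjamini-Hochberg over all genes tested, at 0.05, and adjusted p-values are limma's unless another test is named. The fits were tested on simulated data. Figures used matplotlib 3.10.9.

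The members and lists were chosen with earlier results of these data known. Named in each comparison are every called gene up to 10, otherwise the 10 with the largest difference, or up to 4 with the smallest p where none was called, and throughout the listed genes and the brightest and dimmest of each role. Genes of other lists are among the 4 with the smallest p, and the examples beyond this were chosen after their values were seen. Replicate numbers are shared across groups, but only in TG at 26 weeks did every pair of air and styrene mice with the same number correlate over 0.1, so numbers were not taken as pairs. Alternatives were other filters, probe set means, separate strain fits, other eBayes settings and plate terms, arrays centred, tumour-labelled mice or single arrays left out and a replicate block, and, added after the data were seen, an axis covariate, fewer weeks, and Foxj1 as a covariate.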

Additional observations from a re-analysis of the deposited data

Results flagged for a closer look

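Some values stood apart from the rest of their group of 4 to 10 mice by Dixon's criterion, which chance meets in about 1 in 20 groups. It was met by the highest or lowest mouse in 19 of the 162 checks of listed genes. In CD-1 styrene mice at 104 weeks, replicate 1 was the highest of 10 in Foxj1 (8.78), Tppp3 (11.95) and Tekt1 (8.01). In CD-1 air mice at 104 weeks, replicate 3, with a tumour label, was the lowest of 7 in Rsph1 (6.80) and Tekt1 (4.72). In KO air mice at 104 weeks, replicate 6, with a tumour label, was the lowest of 6 in Efcab1 (5.40) and Tekt1 (6.82).

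In TG air mice at 52 weeks, replicate 2 was the highest of 5 in Efcab1 (6.13), Dnah6 (7.71), Rsph1 (8.55) and Tekt1 (7.88). Rsph1 had a low mouse in KO air at 52 weeks (replicate 3, 7.71), KO styrene at 78 weeks (replicate 5, 7.67) and TG air at 78 weeks (replicate 1, 7.87). Dnah6 had a low mouse in KO styrene at 104 weeks (replicate 1, 5.46) and in WT air at 52 weeks (replicate 5, 6.53). Efcab1 was low in CD-1 air replicate 2 at 78 weeks (4.91), Tekt1 in WT styrene replicate 4 at 104 weeks (6.94), and Tppp3 was high in KO styrene replicate 3 at 26 weeks (11.96).

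The tumour label effect of CD-1 mice at 104 weeks differed between styrene and air for 18 of the 54 genes in the limma fit of that difference. Of all genes 19.5% were called in that fit, which rests on 2 labelled air mice. In further cases all exposed mice of a strain lay on 1 side of their air mean and those of another strain on the opposite side; these differences were not tested. Efcab1 at 52 weeks moved by 0.44 in KO and by -0.62 in CD-1. Tekt1 at 78 weeks moved by 0.24 in KO and 0.32 in CD-1, and by -0.30 in TG.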

How the results depend on the processing

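Of 33 comparisons, 15 kept their count of called genes within 1.5 times under every alternative other than leaving out single arrays. The counts in this section are of this set, and the share of all genes called is not given beside them. They thus do not show changes particular to the set. Genes of the set called in the main fit gave 3752 values under alternatives, of which 0 turned direction, 333 lost the call and 3419 kept both. Following only called genes makes a turn unlikely from the start, and other eBayes settings cannot change a difference. Where a count changed, the cause was not tested. The axis covariate was taken from the residuals of the group fit. It therefore leaves each difference between groups as it was and alters only the error, so counts with it are not an independent check. Except for the tumour label, single arrays were left out only from groups of up to 5 mice. The CD-1 groups of 104 weeks (7 air and 10 styrene mice) were therefore not covered. Nor were the KO air and TG styrene groups of that week, with 6 mice each. For CD-1 styrene minus air at 104 weeks no such fit was run. In CD-1 minus WT, 11 genes were called in air with weeks 52 and 78 only (14 to 24 with 1 array left out). Under styrene 9 were called with weeks 26 and 52 only (14 to 20). KO minus WT under styrene gave 3 with the stricter filter, 2 with the mean of probe sets, 4 with strains fitted separately, 3 without tumour-labelled mice, 2 with arrays centred, 2 with the replicate block, 14 with the axis covariate and 1 to 5 with 1 array left out. TG minus KO under styrene gave 11 with separate fits, 4 without tumour-labelled mice, 0 centred, 0 with the replicate block, 11 with the axis covariate, 0 with weeks 26 and 52 only and 0 to 3 with 1 array left out. TG minus WT under styrene gave 6 with separate fits, 6 without tumour-labelled mice, 6 with the axis covariate and 0 with weeks 26 and 52 only.

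Styrene effects with 0 genes called gave, with the axis covariate, 3 in CD-1 at 78 weeks, 1 in the CD-1 average, 1 in KO at 52 weeks, 5 in the KO average, 3 in TG at 52 weeks and 9 in TG at 78 weeks. Without the plate term they gave 23 in TG at 78 weeks and 2 in the TG average. With 1 array left out they gave 0 to 1 in CD-1 at 26 weeks and in the CD-1 average, and 0 to 7 in TG at 78 weeks. The CD-1 minus WT effect gave 1 without the plate term, 3 with the axis covariate and 0 to 1 with 1 array left out, and the WT minus KO effect gave 1 with separate fits and 1 without tumour-labelled mice.

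At 104 weeks, leaving out tumour-labelled mice gave 19 in CD-1 and 19 in KO, and leaving out 1 array gave 7 to 14 in KO, with 7 without KO styrene replicate 1, and 14 to 20 in WT. Air controls of 78 minus 26 weeks gave 14 in CD-1 with arrays centred (7 higher and 7 lower), and with 1 array left out 6 to 11 in CD-1 and 14 to 17 in KO and TG. The tumour label gave 0 with CD-1 fitted separately, 0 within styrene and 0 to 34 with 1 array left out. The replicate block gave 19 for the tumour label, 20 and 16 for CD-1 minus WT in air and under styrene, and ended the calls of Cfap221 for TG minus KO and in WT at 104 weeks, of Foxj1, Cfap46, Cfap57, Cfap298 and Spag16 for the tumour label, of Dnah1 and Dnah8 for CD-1 minus WT under styrene, and of Cfap47 and Cfap61 in CD-1 at 104 weeks. Over 15 strains and weeks the correlation of same-numbered mice ran from -0.50 to 0.65. Dim signal limits Cfap47, Cfap97d1, Rsph6a and Spag17, and in part Spag5 and Dnah1.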
